A study of Homo sapiens with 18 samples.

Results

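SMAD1, FZD1, FZD3, TBX3 and FGF2 are 5 genes of the BMP, Wnt and FGF signalling routes, measured here in 2 leukaemia cell lines, OCI-AML2 and OCI-AML3, which came from people with acute myeloid leukaemia, by sequencing of RNA. They were taken by gene symbol from a deposited table of 6999 lines, which hold 5069 distinct sets of values, and all 5 were found in it. The table covers 18 libraries in 6 groups of 3. The groups are parental OCI-AML2 cells (NPM1WT, Caspase-2 WT), OCI-AML2 knockout clone 1 and clone 2 (NPM1WT, Caspase-2 KO), parental OCI-AML3 cells (NPM1c+, Caspase-2 WT) and OCI-AML3 knockout clone 1 and clone 2 (NPM1c+, Caspase-2 KO). NPM1c+ denotes a mutated nucleophosmin that lies in the cytoplasm, and all groups were untreated. Each NPM1 state is held by a single cell line, so it cannot be told apart from other differences between the lines. Each knockout group is a single clone, so caspase-2 loss and the history of that clone cannot be told apart, and the labels do not say whether the 3 libraries of a group came from separate cultures. P-values therefore measure the spread between these libraries.

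In Wnt signalling, secreted ligands bind Frizzled receptors on the cell surface, and the canonical branch stabilises beta-catenin, which acts in the nucleus with TCF and LEF factors. Bone morphogenetic proteins bind serine/threonine kinase receptors that phosphorylate SMAD1 and its relatives, which then enter the nucleus with SMAD4. Fibroblast growth factors bind tyrosine kinase receptors and signal largely through the MAP kinase cascade. In pluripotent stem cells these routes help to balance self-renewal against differentiation, and in bone marrow they act between blood progenitors and their niche. FGF2 is a ligand, FZD1 and FZD3 are Frizzled receptors, SMAD1 is an intracellular BMP mediator, and TBX3 is a T-box transcription factor of the network that maintains pluripotency.

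Of the members lower in both OCI-AML3 clones, the promoters of SMAD1, FZD1 and FGF2 are shown, and that of FZD3 is not. They come from RefSeq on build GRCh38.p14 and cover the 250 bases before the annotated start, read 5′ to 3′ on the plus strand. Windows of 1 chromosome were set aside before matching, so a member without a window here need not lack one in RefSeq. After this, 3 of the 5 members had windows, with 5 for SMAD1 and 1 each for FZD1 and FGF2. FZD3 and TBX3 had none. For SMAD1 the window farthest upstream is printed (chr4:145481056-145481305), for FZD1 chr7:91264183-91264432 and for FGF2 chr4:122826581-122826830. Capitals mark a match to any of 6 motifs searched on both strands, of which none overlaps another in these windows. CTTTGAA is bound by TCF and LEF factors, as is its variant CTTTGAT. The letters GGCGCC are a BMP-responsive SMAD element, GTCTAGAC is the palindromic SMAD element, CACGTG is the E-box and TATAAA is the TATA box.
SMAD1: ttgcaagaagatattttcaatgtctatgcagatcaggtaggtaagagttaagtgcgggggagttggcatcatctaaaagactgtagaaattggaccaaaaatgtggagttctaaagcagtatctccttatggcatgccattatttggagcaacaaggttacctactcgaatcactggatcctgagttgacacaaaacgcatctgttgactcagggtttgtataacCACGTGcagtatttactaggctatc
FZD1: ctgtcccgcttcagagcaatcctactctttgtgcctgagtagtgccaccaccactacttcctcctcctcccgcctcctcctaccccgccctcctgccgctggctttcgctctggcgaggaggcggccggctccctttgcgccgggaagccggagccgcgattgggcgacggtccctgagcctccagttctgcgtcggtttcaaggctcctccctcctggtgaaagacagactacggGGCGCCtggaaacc
FGF2: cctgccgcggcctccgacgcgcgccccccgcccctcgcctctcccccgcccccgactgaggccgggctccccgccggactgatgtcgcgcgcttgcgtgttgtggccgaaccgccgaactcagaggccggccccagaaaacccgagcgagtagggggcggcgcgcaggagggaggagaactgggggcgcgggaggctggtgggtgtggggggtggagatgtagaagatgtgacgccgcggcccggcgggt
The SMAD1 window held 1 CACGTG that began 25 bases before the start, a motif found in 6.34% of the 35116 windows of the same length. The FZD1 window held 1 GGCGCC that began 14 bases before the start, found in 16.4% of windows. The FGF2 window held none of the 6. The other SMAD1 windows, not printed, held further matches: 1 TATAAA in window 2, 2 GGCGCC in window 4, and 1 CTTTGAA and 2 GGCGCC in window 5, counted from the farthest upstream. In all windows the share with CTTTGAA was 3.8% and with CTTTGAT 2.26%. The share with GTCTAGAC was 0.182% and with TATAAA 10.7%. CTTTGAT and GTCTAGAC were in no window of these 3 genes. These matches describe letters only.

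Values are TPM (a transcript share, scaled for transcript length and library) as deposited, and TPM does not say how many reads lie behind them. The genes in the table are a selection. In 96.5% of its sets the parental lines, OCI-AML2 clone 1 or each of the OCI-AML3 clones differed by a log2 ratio of 0.95 or more. Shares of sets called in a test are high, and each is printed beside the members' count as the background to read it against. CASP2, the targeted gene, was at 35.32 to 37.29 TPM in OCI-AML2 parental cells, 3 to 3.93 TPM in clone 1 and 3.27 to 5.06 TPM in clone 2. In OCI-AML3 it was at 28 to 30.11 TPM in parental cells, 26.34 to 27.83 TPM in clone 1 and 29.82 to 35.39 TPM in clone 2, so the mRNA gives no check of the knockout labels there. Of 10 defining myeloid markers 4 are printed in the table and 2 could be named with confidence: ANPEP, at 29.9 TPM in OCI-AML3 and 0.147 TPM in OCI-AML2 parental cells, and ITGAM, at 0.2 and 0.283 TPM. Of 7 pluripotent cell markers, POU5F1, NANOG and SOX2 among them, 0 are printed, and neither are the myeloid genes CD33, KIT, SPI1 and CEBPA. In a table of selected genes this says nothing of whether they are expressed.

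The table prints some values under a wrong symbol, so each member was checked. It has 9 lines under the 5 symbols. A set of values that stands under 2 symbols shows the 3 libraries of OCI-AML3 clone 1 in a rotated order in 1 of its lines, and the line in the unrotated order was taken as the right one. SMAD1, TBX3 and FGF2 were settled in this way, and FZD3 stood under its own symbol in both orders. FZD1 stands in a single line. It was accepted because its parental lines differ by a log2 ratio of -0.20, inside the limit of 0.6 set for single lines, with which no symbol was given to more than 1 set.

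The parental lines differed in each of the 4 genes other than FZD1. OCI-AML2 carried the higher levels of FGF2, TBX3 and FZD3, and OCI-AML3 alone had SMAD1 above 0. The line that holds FZD1 was named by a rule that required a small parental difference. Its parental levels are given as a description, it is left out of this count, and its parental test is not read as a result. The question of this comparison is how the NPM1 wild-type line and the NPM1c+ line differ before caspase-2 is targeted. With a single line for each state, NPM1 cannot be told apart from other traits of the lines. Tests were made with limma on log2(TPM + 1) over 4413 sets, with two-sided p-values adjusted by Benjamini-Hochberg over all of them. In that comparison 90.6% of sets were called, so 4 of 4 is not a result about these genes. Neither is that all 5 members had libraries without overlap, as had 91.3% of sets. In bulk RNA, fewer cells with a transcript and less of it per cell cannot be told apart.

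FGF2, a growth factor that signals through FGF receptors, was at 10.78, 10.84 and 11.65 TPM in OCI-AML2 parental libraries. In OCI-AML3 it was at 0.38, 0.44 and 0.33 TPM, below 1 TPM in every library. The libraries of the lines did not overlap, and the mean was 28.9-fold higher in OCI-AML2 (OCI-AML3 minus OCI-AML2 on the log2(TPM + 1) scale -3.13, SE 0.11, limma adjusted p = 5e-15). FGF2 passed the minimum of 1 TPM in 3 libraries only through the 9 OCI-AML2 libraries. The direction of its parental test was thus favoured by the filter, and its p-value is not read as support. FZD1, a Frizzled receptor, was at 10.31, 10.05 and 10.42 TPM in OCI-AML2 and at 9.06, 9.02 and 8.76 TPM in OCI-AML3. Each OCI-AML3 library lay below each OCI-AML2 library, and the mean was 1.15-fold higher in OCI-AML2 (log2 difference -0.18).

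FZD3, a Frizzled receptor known for its part in axon guidance through planar cell polarity, was at 9.09, 10.14 and 10.75 TPM in OCI-AML2 and at 3.81, 3.37 and 3.7 TPM in OCI-AML3. It was 2.76-fold higher in OCI-AML2 (log2 difference -1.25, SE 0.14, limma adjusted p = 1.58e-07). TBX3 followed FGF2 in fold among the genes above 0 in both lines. It was at 11.12, 10.07 and 11.42 TPM in OCI-AML2 and at 0.96, 0.89 and 0.66 TPM in OCI-AML3, a 12.99-fold difference of means (log2 difference -2.69, SE 0.10, limma adjusted p = 2.43e-14). SMAD1, which carries the BMP signal to the nucleus, went the other way. It was at 3.83, 3.16 and 3.73 TPM in OCI-AML3 and listed at 0 in all 3 OCI-AML2 parental libraries (limma adjusted p = 4.15e-15), so no fold is given. A pseudocount of 5 TPM shrank these parental differences, to 0.78 for SMAD1, -0.80 for FZD3, -1.44 for TBX3 and -1.58 for FGF2, and 0.1 TPM raised that of SMAD1 to 5.19, with every call kept. SMAD1 passed that minimum only through OCI-AML3 parental cells, and its test had to show a difference from the groups at 0.

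**Figure D1:**
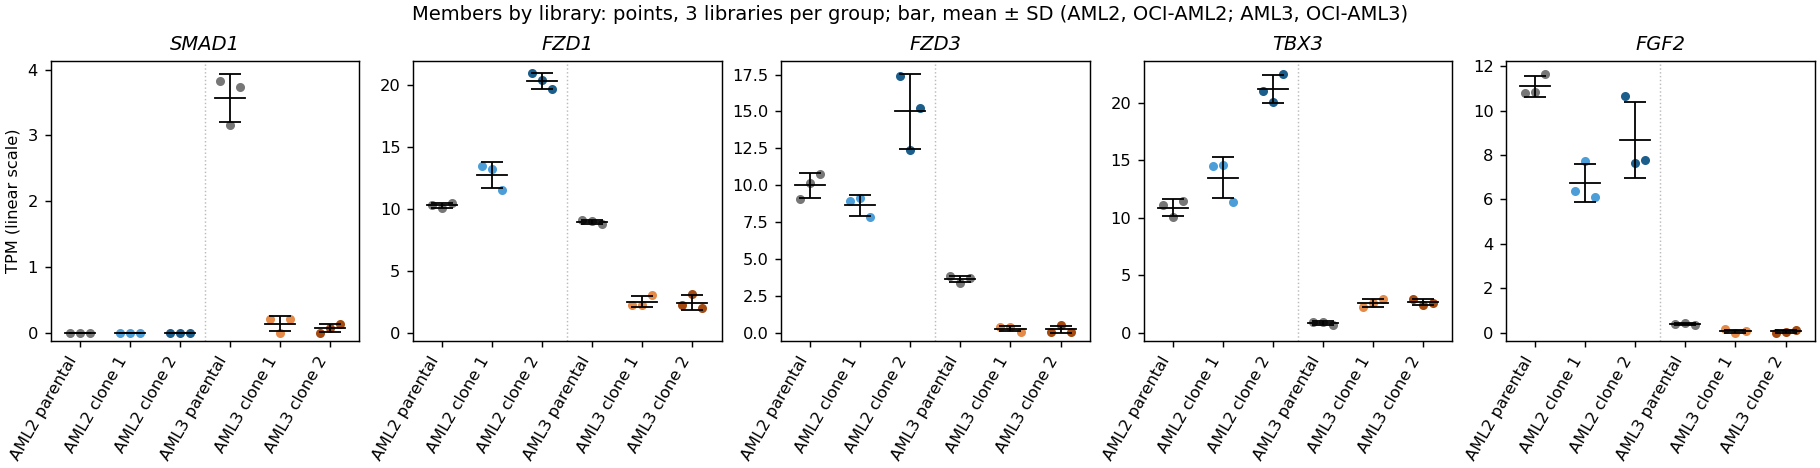
TPM (linear axes) of the 5 members in each library; points are the 3 libraries of a group and the black bars give mean ± SD for parental cells, clone 1 and clone 2 of OCI-AML2 (left of the dotted line) and OCI-AML3 (right). SMAD1 is above 1 TPM only in OCI-AML3 parental cells (3.16 to 3.83 TPM), and TBX3 and FGF2 are higher in every OCI-AML2 library than in any OCI-AML3 library.

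In the OCI-AML3 clones labelled as knockouts, SMAD1, FZD1, FZD3 and FGF2 fell and TBX3 rose, each in both clones. The comparison asks what accompanies the targeting of caspase-2 in cells with NPM1c+. SMAD1 and FZD3 went from about 3.6 TPM to below 1 TPM in all 6 clone libraries, and FZD1 to 27.8% and 27.0% of its parental level. With 72.2% of all sets called in clone 1 and 73.1% in clone 2, 5 of 5 members called lies near the background and says little about the group. SMAD1 entered the tests only through the parental libraries, where it is high, and had to come out lower. Of the other 4 members 3 were called lower in each clone, against 41% and 41.5% of sets. FZD1, among these 3, met the selection ratio of the table only in the OCI-AML3 clones, so a large change there was favoured. All 5 had clone libraries without overlap with the parental ones, as had 74.9% of sets in clone 1 and 75.1% in clone 2. Both clones were compared with the same 3 parental libraries.

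SMAD1 was at 0.2, 0 and 0.2 TPM in the clone 1 libraries and at 0, 0.07 and 0.13 TPM in the clone 2 libraries. Every clone library lay below the lowest parental library at 3.16 TPM. On the log2(TPM + 1) scale SMAD1 was at -2.01 in clone 1 against parental cells (SE 0.075, limma adjusted p = 6.26e-14). In clone 2 it was at -2.10 (adjusted p = 3.43e-14). Since only the parental libraries reached the minimum, this direction was fixed by the filter. The 9 OCI-AML2 libraries, all at 0, add no spread to the error. With only the groups compared in the fit, the adjusted p was 4.77e-08 and 1.16e-08, which are the highest of its alternatives (lowest 1.97e-14 and 1.32e-14).

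FZD1 was at 2.21, 2.24 and 3.01 TPM in the clone 1 libraries and at 2.22, 3.09 and 1.94 TPM in the clone 2 libraries. All 6 values lay far below the parental 8.76 to 9.06 TPM and overlapped with each other. FZD1 changed on the log2(TPM + 1) scale by -1.52 in clone 1 (SE 0.11, limma adjusted p = 4.62e-10) and by -1.56 in clone 2 (adjusted p = 3.37e-10). Of the ratios that 96.5% of sets pass, FZD1 met only that of the OCI-AML3 clones (log2 ratio of means -1.84 and -1.88). Its parental ratio was -0.20, as its naming rule required, and its OCI-AML2 clone 1 ratio 0.31. The selection of the table thus favoured a large change of FZD1 in both OCI-AML3 clones, and these p-values are not read as support.

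FZD3 was at 0.37, 0.37 and 0.06 TPM in the clone 1 libraries and at 0.06, 0.51 and 0.07 TPM in the clone 2 libraries. The clone libraries spread from 0.06 to 0.51 TPM, all below the parental minimum of 3.37 TPM, and the means were 7.35% and 5.88% of the parental mean. FZD3 changed on that scale by -1.88 in clone 1 (SE 0.14, limma adjusted p = 1.11e-09) and by -1.95 in clone 2 (adjusted p = 6.67e-10).

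TBX3 was the member that rose. It was at 2.21, 2.54 and 2.88 TPM in the clone 1 libraries and at 2.95, 2.43 and 2.53 TPM in the clone 2 libraries, against 0.66 to 0.96 TPM in parental cells. The means were 3.04-fold and 3.15-fold higher, with no overlap (log2 change 0.95 and 0.99, SE 0.10, limma adjusted p = 1.66e-07 and 9.76e-08). TBX3 in the OCI-AML3 clones still lay below every OCI-AML2 library, the lowest of which was 10.07 TPM.

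FGF2 fell within a range that was low from the start. It was at 0.14, 0 and 0.05 TPM in the clone 1 libraries and at 0, 0.04 and 0.12 TPM in the clone 2 libraries, below the parental 0.33 to 0.44 TPM. The log2(TPM + 1) change was -0.38 in clone 1 (SE 0.11, limma adjusted p = 0.00407) and -0.39 in clone 2 (adjusted p = 0.00317). With a pseudocount of 5 TPM these calls ended (adjusted p = 0.246 and 0.229, the highest of its alternatives, which began at 6.54e-05 and 4.15e-05). The other log2 changes in OCI-AML3 kept their calls but moved with the pseudocount. In clone 1, 0.1 TPM and 5 TPM gave -4.14 and -0.74 for SMAD1, -3.50 and -0.71 for FZD3 and 1.5 and 0.37 for TBX3, and 5 TPM gave -0.90 for FZD1. In clone 2 they gave -4.54 and -0.76 for SMAD1, -3.87 and -0.73 for FZD3 and 1.56 and 0.39 for TBX3, and 5 TPM gave -0.91 for FZD1.

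**Figure D2:**
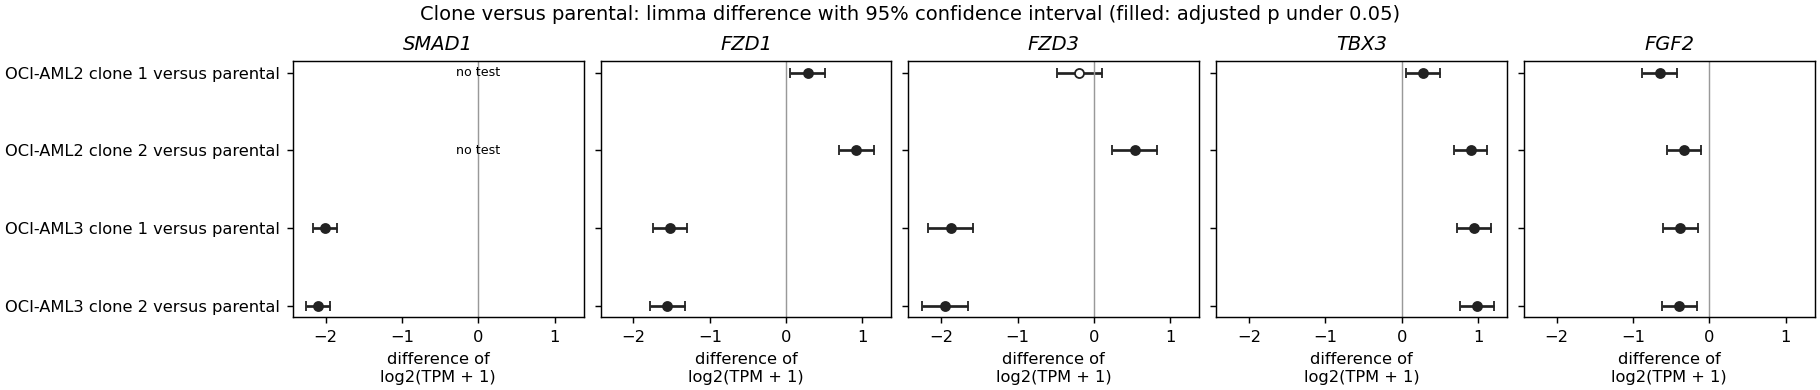
Difference of log2(TPM + 1) between each clone and its parental line (x axis) for the 5 members, with limma's 95% confidence interval; filled points had an adjusted p under 0.05, and SMAD1 has no test in OCI-AML2 because all libraries are at 0. FZD1 and FZD3 lie left of 0 in both OCI-AML3 clones (-1.52 to -1.95) and right of 0 in OCI-AML2 clone 2, TBX3 lies right of 0 and FGF2 left of 0 in all 4 comparisons.

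In the OCI-AML2 clones FZD1 and TBX3 were higher and FGF2 lower in each of the pair, FZD3 was higher in clone 2, and SMAD1 was listed at 0 in all 9 libraries. The rises of FZD1 and TBX3 were large in clone 2 (about 2-fold) and small in clone 1 (1.24-fold each). In clone 1, 3 of 4 members with a test were called, against 56% of all sets, and in clone 2 it was 4 of 4 against 65.7%. Without overlap of libraries were 2 of 4 members in clone 1, against 60.8%, and 4 of 4 in clone 2, against 67.5%. The comparison asks what accompanies the loss of caspase-2 where NPM1 is wild type, and both clones again share their parental libraries.

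FGF2 was at 6.36, 7.71 and 6.12 TPM in the clone 1 libraries and at 10.64, 7.62 and 7.78 TPM in the clone 2 libraries. All 6 clone libraries lay below the lowest parental library at 10.78 TPM, with clone 2 replicate 1 close to it. Clone 1 stood at 60.7% of the parental mean (log2 change -0.65, SE 0.11, limma adjusted p = 5.07e-05) and clone 2 at 78.3% (log2 change -0.33, adjusted p = 0.0112). The clone 2 call ended with a pseudocount of 0.1 TPM (adjusted p = 0.283). It also ended without clone 2 replicate 2 (log2 change -0.26, adjusted p = 0.0639) or without clone 2 replicate 3 (-0.27, adjusted p = 0.058), and over all its alternatives the adjusted p ran from 0.000336 to 0.283.

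FZD1 was at 13.4, 13.22 and 11.48 TPM in the clone 1 libraries and at 20.9, 20.38 and 19.63 TPM in the clone 2 libraries. Every clone library was above the highest parental library at 10.42 TPM, and clone 2 lay above clone 1 throughout. The log2 change was 0.28 in clone 1 (SE 0.11, limma adjusted p = 0.0347) and 0.92 in clone 2 (adjusted p = 6.05e-07). In clone 1 the call was weak: it ended after rescaling by medians of ratios (log2 change 0.17, adjusted p = 0.167), with a pseudocount of 0.1 TPM (adjusted p = 0.0827), without any of the 3 parental libraries and without clone 1 replicate 1 or 2 (0.24 to 0.29, adjusted p = 0.0618 to 0.112). Over all its alternatives the adjusted p ran from 0.00673 to 0.167.

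FZD3 was at 8.95, 9.15 and 7.83 TPM in the clone 1 libraries and at 17.43, 12.39 and 15.22 TPM in the clone 2 libraries. Clone 1 overlapped with the parental 9.09 to 10.75 TPM, while clone 2 lay wholly above it with a wide spread (15.0 ± 2.53 TPM, SD, n = 3). The clone 1 difference did not pass (log2 change -0.19, 95% interval -0.49 to 0.11, limma adjusted p = 0.285). In clone 2 FZD3 rose by 0.53 on the log2 scale (SE 0.14, adjusted p = 0.00296), a call that ended with a pseudocount of 0.1 TPM (adjusted p = 0.258; range over the alternatives 8.11e-05 to 0.258).

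TBX3 was at 14.45, 14.57 and 11.4 TPM in the clone 1 libraries and at 20.98, 20.06 and 22.53 TPM in the clone 2 libraries. Clone 1 replicate 3 fell just inside the parental range, which ended at 11.42 TPM, and clone 2 was 1.95-fold above the parental mean without overlap. Its log2 change was 0.28 in clone 1 (SE 0.10, limma adjusted p = 0.0284) and 0.90 in clone 2 (adjusted p = 4.48e-07). In clone 1 this call ended after rescaling by medians of ratios (log2 change 0.17, adjusted p = 0.136), with a pseudocount of 0.1 TPM (adjusted p = 0.0842), and without parental replicate 2 (0.23) or clone 1 replicate 1 or 2 (0.23 and 0.22, adjusted p = 0.111 to 0.119). Over all its alternatives the adjusted p ran from 0.00403 to 0.136.

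The clones of OCI-AML2 differed from each other in every member that could be tested, and no member passed between those of OCI-AML3. Between OCI-AML2 clone 2 and clone 1, 4 of 4 members were called, all higher in clone 2, against 58.9% of all sets called and 29.9% called higher. FZD3 was 1.74-fold (log2 difference 0.72, limma adjusted p = 0.000274), FZD1 1.60-fold (0.64, adjusted p = 5.84e-05) and TBX3 1.57-fold higher in clone 2 (0.62, adjusted p = 4.95e-05). These 3 had libraries without overlap, as had 60.3% of sets. FGF2 was 1.29-fold higher with overlapping libraries (0.32, adjusted p = 0.0175). That last call ended without clone 1 replicate 1 (0.28, adjusted p = 0.0614), without clone 1 replicate 3 (0.26, adjusted p = 0.0771), without clone 2 replicate 1 (0.18, adjusted p = 0.132), with only both clones in the fit (adjusted p = 0.0588) and with a pseudocount of 0.1 TPM, which also ended the FZD3 call (adjusted p = 0.324 and 0.137). Over the alternatives the adjusted p ran from 0.00169 to 0.324 for FGF2 and from 4.22e-06 to 0.137 for FZD3.

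Between OCI-AML3 clone 2 and clone 1, 0 of 5 members passed in limma, against 6.82% of all sets, and 0 of 5 had an unadjusted p under 0.05. The 95% intervals of the log2 differences were -0.24 to 0.07 for SMAD1, -0.26 to 0.19 for FZD1, -0.37 to 0.23 for FZD3, -0.18 to 0.26 for TBX3 and -0.24 to 0.21 for FGF2. Their libraries overlapped in each case, while 27.8% of all sets did not overlap.

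**Figure D3:**
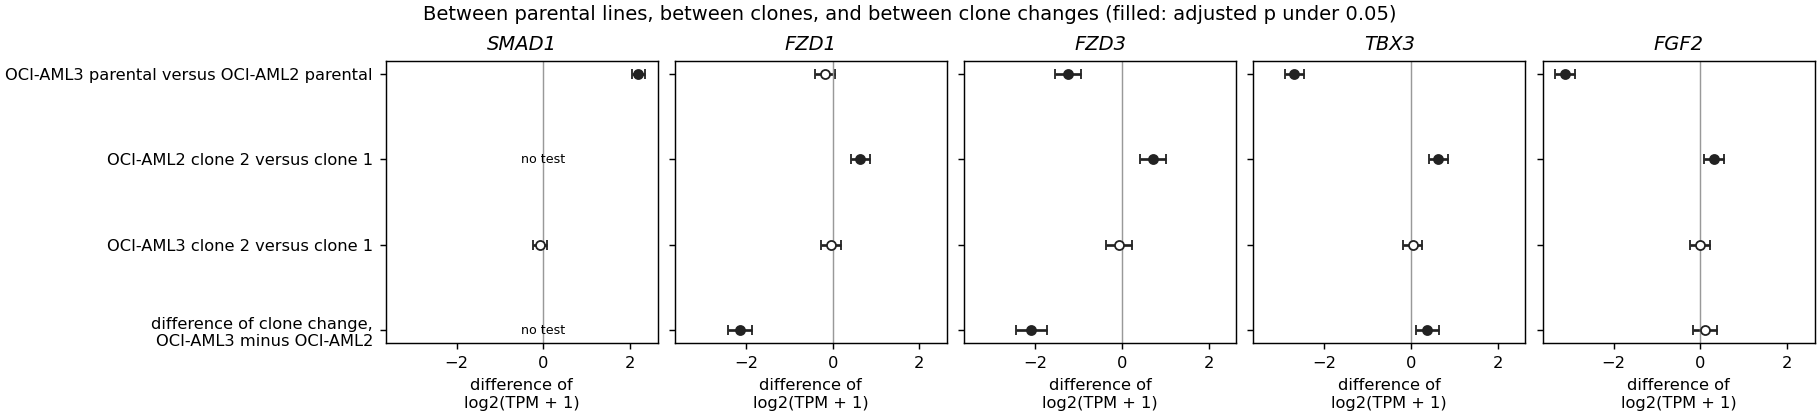
Difference of log2(TPM + 1) (x axis) for the 5 members between the parental lines, between clone 2 and clone 1 of each line, and between the mean clone changes of the lines, with limma's 95% confidence interval; filled points had an adjusted p under 0.05. The naming rule of FZD1 limited its parental difference. OCI-AML2 clone 2 lies above clone 1 in the 4 genes with a test, and the OCI-AML3 clones lie at 0 within their intervals.

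The change from parental cells to clones was compared between the lines by the difference of the mean clone changes in log2(TPM + 1). FZD1 and FZD3 changed in a more negative way in OCI-AML3, by -2.14 (SE 0.13, limma adjusted p = 7.38e-11) and -2.09 (SE 0.17, adjusted p = 4.32e-09). All 4 pairings of a clone of each line gave this sign for both genes, from -2.48 to -1.69, each past the threshold. For FZD1 the selection of the table favoured a large change in OCI-AML3, so its difference is a description. The median of this difference over all 4413 sets was -0.23, so relative to it FZD1 was at -1.90 and FZD3 at -1.85. Of 4 members 3 were called here, against 81.7% of all sets. TBX3 rose more in OCI-AML3 on this scale (0.38, SE 0.13, adjusted p = 0.0114), but only the pairings with OCI-AML2 clone 1 passed (0.67 and 0.71), and those with clone 2 were at 0.04 and 0.08. With a pseudocount of 5 TPM the TBX3 difference turned to -0.09 (adjusted p = 0.305; range over the alternatives 0.000148 to 0.305), and with 0.1 TPM it was 0.90. The difference of FZD3 was -3.87 with 0.1 TPM and -0.86 with 5 TPM, and that of FZD1 was -1.38 with 5 TPM, with calls kept. FGF2 fell in both lines, and its difference did not pass (0.10, 95% interval -0.17 to 0.38, adjusted p = 0.473). The FGF2 difference depended on the pseudocount: it was -1.15 with 0.1 TPM (adjusted p = 0.00707) and 0.26 with 5 TPM (adjusted p = 0.00641), where the adjusted p of all alternatives ran from 0.00641 to 0.661. SMAD1 has no such test, since a gene listed at 0 throughout OCI-AML2 cannot fall there.

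Across the genes of these routes, most of the few Wnt genes counted were lower in the OCI-AML3 clones, the members FZD1 and FZD3 among them. This count is a description, since the choice of members and the selection of the table favoured part of it. FGF genes and BMP and activin genes went in both directions. The lists name 182 genes of the Wnt, BMP, activin, TGF-beta and FGF routes and the T-box family. The table prints 72 of them, 39 had a settled symbol and 32 of these passed the minimum of 1 TPM in 3 libraries. Of these, 5 passed through a single group and had to differ from it: WNT7B, TCF7, TBX2 and SMAD1 through OCI-AML3 parental cells and INHBA through OCI-AML3 clone 1. They are left out of the counts and medians that follow. CHRD, which reached that minimum only in parental libraries, stays in, as do INHBB and NOG, which reached it only with OCI-AML2 clone libraries. The filter favoured the direction of these genes, so the counts that hold them are descriptions. FZD1, FZD2, BMPR1A, SPRY2 and TBX1 were named as single lines with a small parental difference, which favours genes that changed in the clones. Leaving the members aside too, 8 of 23 were higher in each OCI-AML3 clone and 12 lower in each (median log2 change -0.42), where 28.7% of all 4413 sets were higher and 38.3% lower (median -0.06). In OCI-AML2, 9 of 23 were higher in each clone and 5 lower in each (median 0.36), where the shares of all sets were 23.8% and 14.6% (median 0.06).

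Of 6 tested Wnt genes, members included, 5 were lower in each OCI-AML3 clone and 1 higher (median log2 change -1.06). Over all sets, 38.3% were lower and 28.7% higher in each OCI-AML3 clone. The members FZD1 and FZD3 were chosen with earlier results of these data known. FZD1 and FZD2 were named as single lines by a small parental difference, which in this table favours genes that changed in the clones. The lower genes were the ligand gene WNT3, the receptor genes FZD1, FZD2 and FZD3, and DKK2, a secreted modulator of the LRP co-receptors. TCF7L2, a nuclear partner of beta-catenin, was the higher gene. Without FZD1, FZD2 and FZD3, this leaves WNT3 and DKK2 lower and TCF7L2 higher. The ligand gene WNT7B, whose direction the filter fixed, was at 3.88, 3.88 and 3.41 TPM in OCI-AML3 parental cells, at 0.12, 0.06 and 0.15 TPM in the clone 1 libraries and at 0.21, 0.34 and 0.07 TPM in the clone 2 libraries (log2 change -2.09 and -1.97), and at 0 to 0.14 TPM in OCI-AML2. In OCI-AML2, 2 of the 6 Wnt genes were higher in both clones, FZD1 and TCF7L2, and 1 was lower, DKK2. The shares of all sets there were 23.8% and 14.6%.

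Of 10 tested BMP, activin and TGF-beta genes, 3 were higher in each OCI-AML3 clone and 4 lower (median -0.02). In each OCI-AML2 clone 5 were higher and 3 lower (median 0.52). The shares of all sets, higher and lower, were 28.7% and 38.3% in OCI-AML3 and 23.8% and 14.6% in OCI-AML2. The ligand genes BMP2 and INHBE and the decoy receptor gene BAMBI were higher in OCI-AML3, and TGFB3, the co-receptor gene TGFBR3, the BMP target ID3 and the BMP antagonist CHRD were lower. NOG, which encodes the BMP antagonist noggin, rose in OCI-AML2 from 1.13, 0.88 and 1.37 TPM to 7.41, 7.69 and 6.27 TPM in clone 1 and 3.75, 5.86 and 4.19 TPM in clone 2. Its log2 change was 1.94 and 1.39 there (limma adjusted p = 1.03e-10 and 6.31e-09), while all 9 OCI-AML3 libraries were at 0 to 0.07 TPM. NOG reached the minimum only with the clone libraries, where it is high, and the OCI-AML3 libraries add little spread to the error. Its direction was thus favoured by the filter, and these p-values are not read as support. INHBE, an activin subunit gene, fell in OCI-AML2 from 8.68, 9.33 and 10.1 TPM to 6.96, 6.16 and 6.36 TPM in clone 1 and to 0.66, 0.35 and 0.47 TPM in clone 2. In OCI-AML3 INHBE rose from 0.87, 0.65 and 0.91 TPM to 5.02, 4.55 and 4.9 TPM in clone 1 and to 3.55, 4.45 and 3.27 TPM in clone 2. BMPR1A, a type I BMP receptor gene, was lower in both OCI-AML2 clones, and CHRD was lower and BAMBI higher in both clones of both lines. CHRD reached 1 TPM only in parental libraries, so it entered the tests where it is high, and it is among the lower genes counted. The activin subunit gene INHBB, counted as higher in OCI-AML2, reached the minimum only with the clone libraries there.

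Of the 8 tested FGF genes, 4 were higher in each OCI-AML3 clone and 4 lower (median 0.27), against 28.7% and 38.3% of all sets. In each OCI-AML2 clone 2 were higher and 2 lower (median -0.05), against 23.8% and 14.6% of all sets. The higher genes in OCI-AML3 were DUSP6, a phosphatase of ERK, and SPRY1, SPRY2 and SPRED3, of the Sprouty and Spred families that restrain receptor tyrosine kinase signalling. The lower genes were FGF2, the receptor genes FGFR1 and FGFR4, and ETV4, an ETS transcription factor downstream of FGF receptors. FGFR1 and FGFR4 were higher in both OCI-AML2 clones, where FGF2 and SPRED3 were lower.

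DUSP6 was at 4.28, 3.13 and 2.91 TPM in OCI-AML3 parental cells, at 21.17, 21.15 and 21.68 TPM in the clone 1 libraries and at 18.59, 22.3 and 21.48 TPM in the clone 2 libraries (log2 change 2.34 and 2.30, limma adjusted p = 3.12e-13 and 3.86e-13). SPRED3 was at 1.67, 1.3 and 1.12 TPM in OCI-AML3 parental cells, at 8.27, 9.81 and 8.54 TPM in the clone 1 libraries and at 12.41, 11.55 and 10.87 TPM in the clone 2 libraries (log2 change 2.07 and 2.42, adjusted p = 3.42e-12 and 3.84e-13). ETV4 went the other way, from 18.42, 16.54 and 16.52 TPM to 2.25, 3.15 and 2.17 TPM in clone 1 and 2.7, 4.09 and 3.65 TPM in clone 2 (log2 change -2.38 and -2.03, adjusted p = 6.19e-12 and 5.25e-11). None of the 3 had overlapping parental and clone libraries in OCI-AML3, as was so for 74.9% of sets in clone 1 and 75.1% in clone 2. These genes were picked for their large clone change, so this is no separate result. In OCI-AML2 the log2 change of ETV4 was 0.12 in clone 1 and -0.05 in clone 2 (adjusted p = 0.432 and 0.784), and DUSP6 passed in clone 2 alone (0.51, adjusted p = 0.000155, against 0.21 and adjusted p = 0.0766 in clone 1).

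Of 3 tested T-box genes, TBX3 was higher and TBX1 and TBX20 lower in both OCI-AML3 clones. In OCI-AML2 TBX3 and TBX20 were higher in both clones and TBX1 did not pass in both. The shares of all sets, higher and lower, were 28.7% and 38.3% in OCI-AML3 and 23.8% and 14.6% in OCI-AML2. With so few genes this is a description.

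**Figure D4:**
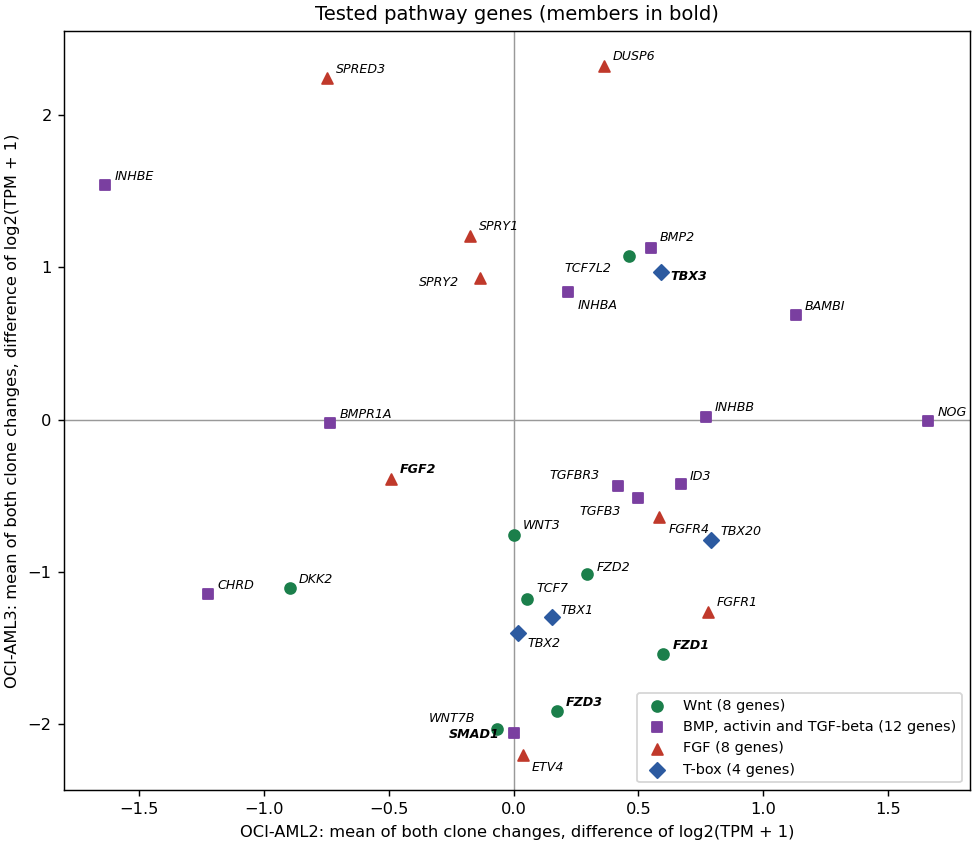
Mean of both clone changes in OCI-AML2 (x axis) against that in OCI-AML3 (y axis), as differences of log2(TPM + 1), for the 32 tested genes of the lists; symbols give the list and the 5 members are in bold. WNT7B, TCF7, TBX2 and SMAD1 reached the minimum only through OCI-AML3 parental cells and INHBA only through OCI-AML3 clone 1. DUSP6 and SPRED3 lie highest (2.32 and 2.24), and INHBE and SPRED3 lie at the upper left, higher in OCI-AML3 and lower in OCI-AML2.

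The genes whose pattern was most like each member were taken as the 3 highest Pearson correlations of log2(TPM + 1) over the 18 libraries, among 2086 other named genes. These correlations are descriptions: the points are 6 groups of 3 libraries from 2 lines, and the table is a selection of genes that differ between these groups. For SMAD1 they were MYH10 (r = 0.995), FOXL2 (0.994) and KDELC1 (0.994), which in the same way were at or near 0 everywhere but in OCI-AML3 parental cells (2.97, 4.86 and 4.47 TPM). For FZD1 they were CD82, a tetraspanin (0.994), IGF1R, the receptor of insulin-like growth factor 1 (0.991), and MICB, a ligand of the NKG2D receptor (0.984). CD82 went from 35.1 TPM in OCI-AML2 parental cells to 47.0 and 94.6 TPM in the clones, and from 27.6 to 5.74 and 5.32 TPM in OCI-AML3. FZD3 was most like BST1 (0.990), LGALS9, which encodes galectin-9 (0.989), and SLC29A2, a nucleoside transporter gene (0.988). TBX3 was most like RNF24 (0.988), AHR, the aryl hydrocarbon receptor gene (0.987), and SAMSN1 (0.982). FGF2 was most like CLEC12A, a myeloid lectin receptor gene (0.995), CD180 (0.993) and LHFPL2 (0.992). Among the members themselves FZD1 and FZD3 were the pair most alike (r = 0.97), and SMAD1 with TBX3 the least (r = -0.70).

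**Figure D5:**
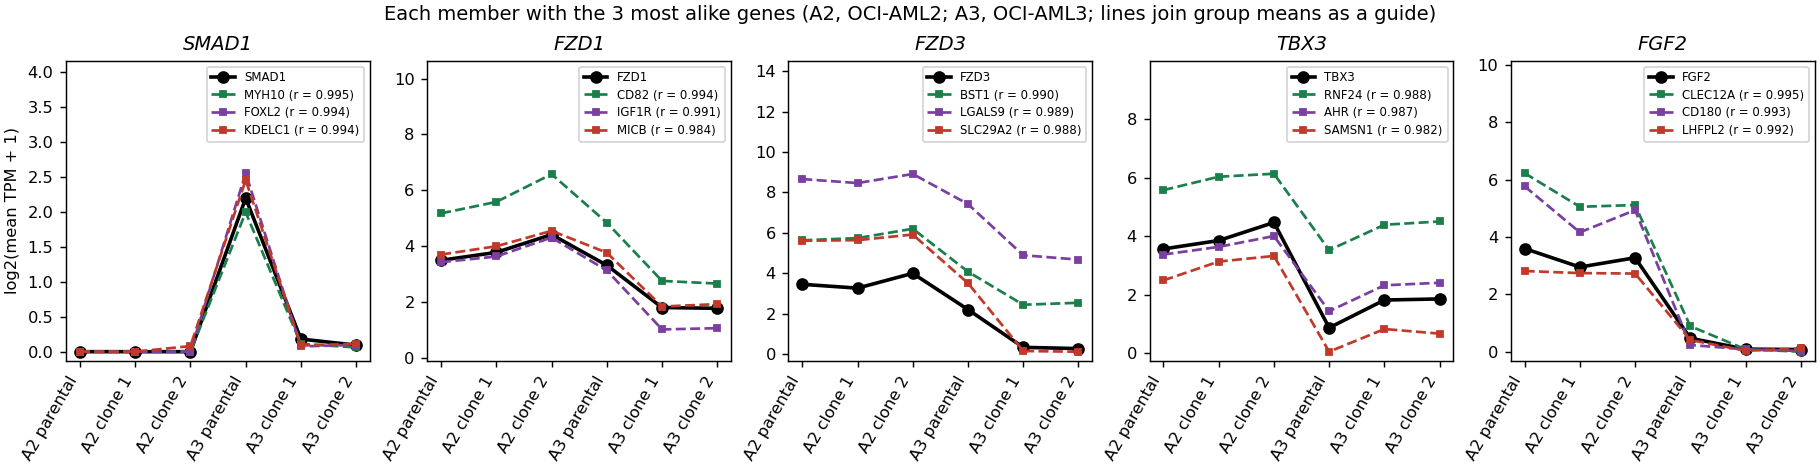
log2 of group mean TPM + 1 (y axis) in the 6 groups (x axis) for each member (black) and the 3 genes with the highest correlation to it over 18 libraries (coloured, r in the legend); lines only guide the eye. SMAD1 and its 3 genes peak in OCI-AML3 parental cells, while FZD1 and its 3 genes are highest in OCI-AML2 clone 2 and lowest in the OCI-AML3 clones.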

How the data were processed

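RNA was sequenced from untreated OCI-AML2 and OCI-AML3 cells, and groups and replicate numbers were taken from the sample titles. The deposited table holds TPM for each gene in each library, as its file headers say. Which aligner, counter, build or annotation the authors used is not given in the sources used here. TPM keeps no depth, so no counting interval is given. All 18 columns of values were matched to samples by their names.

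Repeated lines were counted once (5069 sets). Symbols were settled by the replicate order of OCI-AML3 clone 1, by repetition under 1 symbol, or for single lines by a parental log2 ratio (mean TPM + 0.01) under 0.6, which named 2324 sets. Sets without a settled symbol entered the fits unnamed. Sets with at least 1 TPM in 3 libraries were modelled on the log2(TPM + 1) scale. The tool was limma (version 3.58.1, R 4.3.3) with an intensity trend, 1 mean for each of the 6 groups and a Benjamini-Hochberg threshold of 0.05 in each comparison. Fold changes on that scale understate changes of low genes, and folds given as ratios are ratios of mean TPM. The fitting script was tested on simulated data.

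The 5 members were named, with the tested genes of the lists. Values were given for the 6 other list genes with the largest mean clone change in either line, and for likeness the 3 genes with the highest correlation. Members and lists were chosen with earlier results of these data known. Alternatives were 2 other pseudocounts, 2 other minimums, rescaling by medians of ratios, no trend, fewer groups, all lines, the replicate block and leaving out each library.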

Additional observations from a re-analysis of the deposited data

Results flagged for a closer look

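The change from parental cells to clones differed between the cell lines in 3 members by a test of the difference itself. FZD1 was higher in every OCI-AML2 clone library and lower in every OCI-AML3 clone library than in the respective parental cells (difference of the mean clone changes, OCI-AML3 minus OCI-AML2, -2.14, limma adjusted p = 7.38e-11). The naming rule and the selection of the table favoured a large OCI-AML3 change of FZD1, so its difference is a description. FZD3 fell in both OCI-AML3 clones and rose in OCI-AML2 clone 2 (-2.09, adjusted p = 4.32e-09). TBX3 rose in all 4 clones, and its difference of 0.38 (adjusted p = 0.0114) rested on OCI-AML2 clone 1. In all, 81.7% of tested sets differed between the lines in this test.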

How the results depend on the processing

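Of 36 results of the members, 21 kept their direction and their side of the threshold in every setting that could be fitted, and over all results 910 of 947 settings did so. A pseudocount of 0.1 TPM ended the calls of FZD1 (0.30) and TBX3 (0.30) in OCI-AML2 clone 1, of FZD3 (0.57) and FGF2 (-0.37) in OCI-AML2 clone 2, and of FZD3 (0.78) and FGF2 (0.35) between the OCI-AML2 clones, and turned the FGF2 difference between the lines to -1.15. A pseudocount of 5 TPM ended the FGF2 calls in OCI-AML3 clone 1 (-0.0885) and clone 2 (-0.0913), made the FGF2 difference between the lines pass (0.26) and turned that of TBX3 to -0.0905. Rescaling by medians of ratios ended the calls of FZD1 (0.17) and TBX3 (0.17) in OCI-AML2 clone 1 and made FZD1 pass between the parental lines (-0.31), a difference that the rule for naming its line had limited. It moved the median difference between the lines over all sets by 0.17. With only the groups compared, FZD1 passed between the parental lines (-0.18), under the same limit of its naming rule, and FGF2 no longer passed between the OCI-AML2 clones (0.32). The causes were not tested. Leaving out 1 library gave 0.24 to 0.35 for FZD1 and 0.22 to 0.39 for TBX3 in OCI-AML2 clone 1, -0.47 to -0.26 for FGF2 in OCI-AML2 clone 2 and 0.18 to 0.41 for FGF2 between the OCI-AML2 clones. Between the OCI-AML3 clones, where no member passed, it gave -0.173 to 0.069 for FZD1, -0.24 to 0.0153 for FZD3, -0.03 to 0.107 for TBX3 and -0.0582 to 0.0382 for FGF2.

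Equal replicate numbers did not pair the libraries: their deviations from the group means correlated between -0.355 and 0.17 over 12 pairs, 1 of them above 0.1. With the replicate block all 36 results kept direction and call (FZD1 in OCI-AML2 clone 1 was at 0.28, adjusted p = 0.0456). SMAD1 could not be fitted with a minimum of 5 TPM or without an OCI-AML3 parental library, since it then missed the minimum. For the same reason FGF2 could not be fitted with only the groups compared in any comparison within OCI-AML3. Nor could SMAD1 and FZD3 between the OCI-AML3 clones. Between the OCI-AML3 clones the number of sets called over the table was 301. It was 166 with a pseudocount of 0.1 TPM, 102 without OCI-AML3 clone 2 replicate 2, 171 without its replicate 1, and 143, 181 and 180 without OCI-AML3 clone 1 replicate 1, 2 and 3. Without depth, values under about 1 TPM have unknown counting error.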

Other observations

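Among the named genes of the lists, 7 stayed below the minimum of 1 TPM in 3 libraries and were not tested. Of these, 6 had their highest mean in OCI-AML3 parental cells. No share over all sets below the minimum was taken, and the table is a selection of genes that differ, so this count is a description. FZD4, a Frizzled receptor gene, was at 1.04 TPM there and at 0.307 and 0.317 TPM in the clones. FZD6 was at 0.433 TPM against 0 and 0.0267 TPM. AXIN2, a negative-feedback target of canonical Wnt signalling, was at 0.55 TPM against 0.07 and 0.1 TPM, and WNT11 at 1.05 TPM against 0.227 and 0.163 TPM. The BMP genes BMP6 and SMAD9 were at 0.397 and 0.4 TPM in parental cells and at 0.03 to 0.05 TPM in the clones. The seventh, ACVR1C, an activin receptor-like gene, was highest in OCI-AML2 clone 1 (0.437 TPM).

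The table prints other values under 3 of the member symbols, which were not used. A second line under TBX3 has means of 73.4, 56.7 and 51.7 TPM in OCI-AML2 parental cells, clone 1 and clone 2 and of 37.6, 43.8 and 42.9 TPM in OCI-AML3. A further line under FZD3 has 13.0, 11.3 and 13.1 TPM in OCI-AML2 and 29.4, 28.0 and 28.4 TPM in OCI-AML3. In that line the parental order is the reverse of the line used, and the OCI-AML3 clones lie close to their parental cells. A second line under FGF2 stands also under LRRN4, in the replicate order that marks LRRN4 as its owner, and has 0.343 TPM in OCI-AML2 and 0.927 TPM in OCI-AML3 parental cells. In the second TBX3 line both OCI-AML2 clones lie below the parental cells, whereas in the line used they lie above them.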
